A study of Danio rerio with 6 samples.

Results

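The livers described here came from zebrafish offspring sired with fresh sperm, the control group of a study on the long-term effects of sperm cryopreservation. The 3 libraries whose treatment label is fresh sperm were taken, out of 6 in all, and are called fresh replicates 1, 2 and 3. The other 3 libraries come from offspring of cryopreserved sperm and are not used below. All 6 libraries share the wild-type AB strain, the liver as tissue and a single batch label, and the fresh libraries carry no other treatment. They are labelled as biological replicates. Sex, age and the number of fish behind a library are not in the labels, so the spread given here is that between libraries, whatever each held.

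The liver makes most of the proteins of blood plasma, assembles lipoproteins that carry lipid to other organs, stores and releases glucose, and breaks down amino acids and foreign compounds. Hepatocytes, its main cell type, therefore devote much of their messenger RNA to a few secreted proteins. In zebrafish, apoa1b (an apolipoprotein of high-density lipoprotein), tfa (transferrin, the iron carrier of plasma) and fabp10a (the liver's own fatty acid binding protein) are standard hepatocyte markers.

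Values are in CPM, the count of a gene scaled to a common library total of 1000000. Summed over genes, fresh replicates 1, 2 and 3 held 17046138, 17606733 and 16885619 counts. A count was seen for 20026 of 32520 genes in at least 1 fresh library and for 15390 in all 3. CPM here is a share of counted fragments and is not divided by transcript length, so a long transcript takes more of it, and ranks by CPM do not rank genes by the number of their molecules. Gene symbols follow a table of names in which many are capitalised, and where more than 1 gene has the same symbol its Ensembl identifier is added.

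All hepatocyte markers stood near the top in every library. apoa1b had the largest share of counts of any gene, with 46998, 43141 and 47835 CPM in fresh replicates 1 to 3. tfa ranked 3 by mean CPM, with 41327, 27412 and 22037 CPM. fabp10a ranked 18, with 8717, 8851 and 9371 CPM. The apolipoprotein and the fatty acid binding protein stayed within 1.11-fold and 1.08-fold across the libraries, while transferrin differed by 1.88-fold and was highest in fresh replicate 1.

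Few genes held most of the counts. The 10 genes of highest mean CPM held 24.9% ± 0.647 of counts (SD, n = 3 libraries), the leading 100 held 58.0% ± 0.222 and the leading 1000 held 86.3% ± 0.179. By mean CPM, 57 genes made up 50% of the counts and 1597 genes made up 90%. At the other end of the scale, 11414 genes had a mean of at least 1 CPM, 4971 at least 10 CPM, 910 at least 100 CPM, 133 at least 1000 CPM and 11 at least 10000 CPM. The leading genes were largely shared: 8 of the 10 leading genes were among the leading 10 of every library, as were 21 of the leading 25 and 87 of the leading 100.

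**Figure D1:**
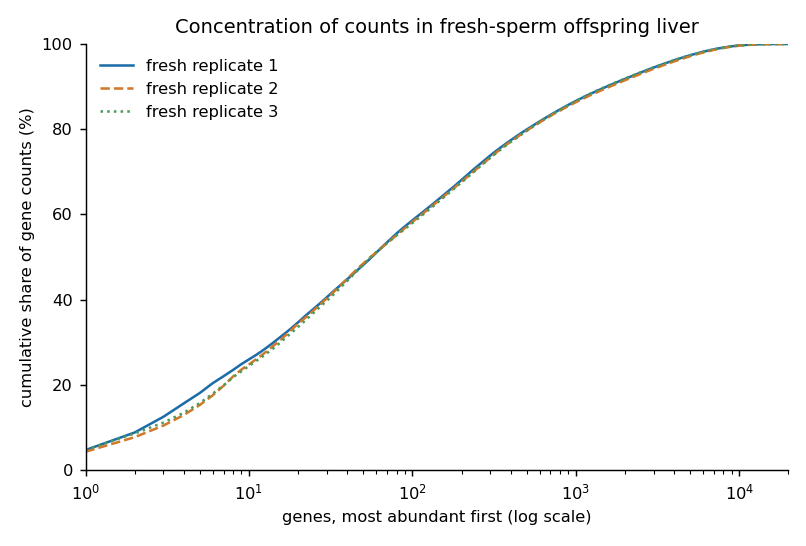
Cumulative share of gene counts (%, y axis) against the number of genes taken in order of falling CPM within each library (log scale, x axis), with a line for each of the 3 fresh libraries. The lines nearly coincide, and each library's own leading 10 genes hold 24.4% to 25.97% of its counts.

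Genes of the leading 100 fell in 76 cases into a functional class defined by gene symbols. Plasma proteins took the largest share, with 23.9%, 20.5% and 20.1% of counts in fresh replicates 1 to 3 (21.5% ± 2.09). Lipid genes followed with 15.97%, 16.7% and 17.8% (16.8% ± 0.901). The apolipoproteins, which are plasma proteins too, were counted among lipid genes and left out of the plasma protein share. They made up most of the lipid share, at 13.9% ± 0.647 of counts. Enzymes of glucose, amino acid, drug and redox metabolism took 9.86%, 11.4% and 11.6% (10.9% ± 0.931). Mitochondrial genes held the steadiest large share, with 8.59%, 8.76% and 8.86% (8.73% ± 0.139). Translation genes held 8.47% ± 0.375, genes of folding, turnover, cytoskeleton and chromatin 3.56% ± 0.107, and genes in no class 30.01% ± 0.461. By share of counts fresh replicate 1 was highest for plasma proteins and lowest for lipid, enzyme and mitochondrial genes. Of 130 mitochondrial genes with a mean of at least 10 CPM, however, 53 were highest there and 24 lowest. Of 95 plasma protein genes at that level, 41 were highest there and 34 lowest. For 121 lipid genes these counts were 41 and 56, and for 237 enzyme genes 62 and 87. Over all 4971 genes at that level, 38.2% were highest and 34.9% lowest there. Shares of 1 total are not independent, so a rise of plasma protein counts in a library lowers the other shares by itself.

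**Figure D2:**
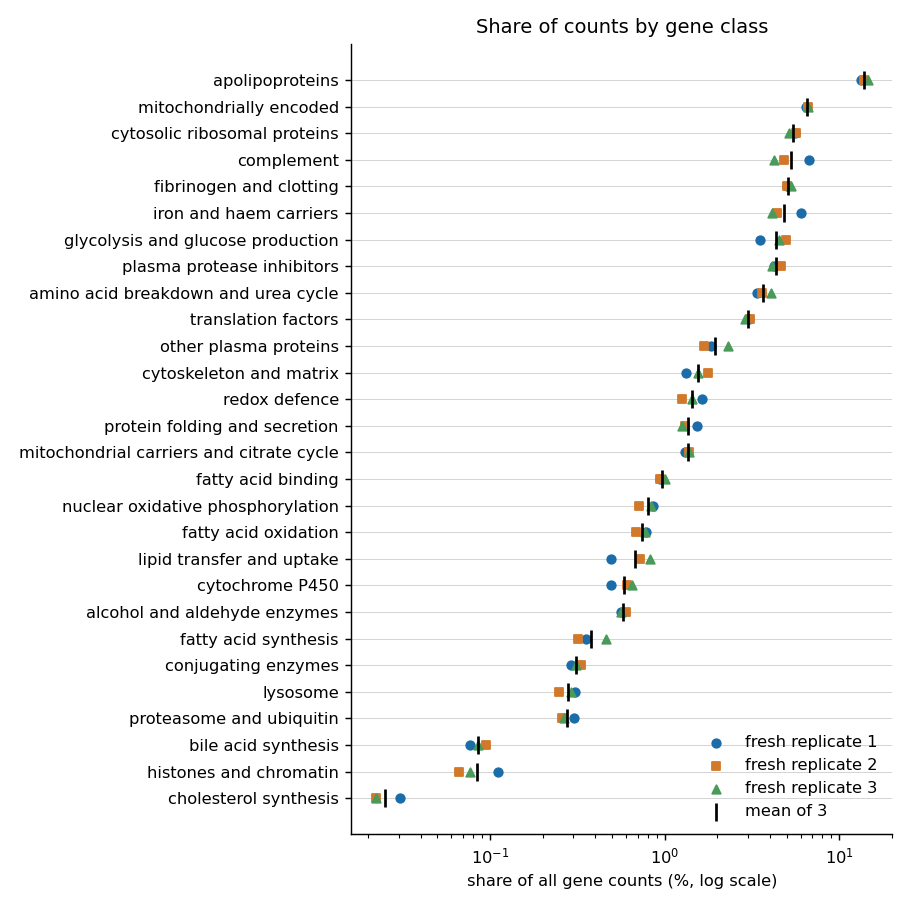
Share of all gene counts (%, log scale, x axis) held by each gene class (y axis) in the 3 fresh libraries (coloured points) and on average (black bar). Complement and the iron and haem carriers are highest in fresh replicate 1, while the mitochondrially encoded genes hold 6.42% to 6.67% in every library.

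Apolipoproteins were the largest class within lipid genes and in the whole liver, at 13.9% ± 0.647 of counts. apoa2, a structural apolipoprotein of high-density lipoprotein, ranked 2 with 36924, 34120 and 38158 CPM. apoc1, a small exchangeable apolipoprotein, had 23033, 22510 and 22508 CPM and was among the 15 steadiest named genes of at least 100 CPM. The large apolipoprotein B, the structural protein of very-low-density lipoprotein, behaved otherwise. apobb.1 had 13732, 23265 and 23215 CPM, and APOB, another copy, had 2669, 5807 and 5185 CPM, both lowest in fresh replicate 1. apobb.2, a further copy, ran the other way with 1285, 413 and 391 CPM, highest in fresh replicate 1. Reads of the apob copies may be shared between them, and their sum was 1.77%, 2.95% and 2.88% of counts.

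Lipid uptake genes also stood lowest in fresh replicate 1 for 12 of 18 members with a mean of at least 10 CPM, as were 34.9% of all 4971 genes at that level. ldlra, a receptor for low-density lipoprotein, had 95.6, 856 and 1039 CPM, and CETP, which in humans exchanges cholesteryl ester between lipoproteins, had 235, 651 and 548 CPM. LPL, which releases fatty acids from circulating triglyceride, had 1485, 1629 and 2580 CPM and was highest in fresh replicate 3. The receptor gene is the one that separates the libraries most: without fresh replicate 1 the remaining libraries differed by 1.21-fold.

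Genes of fatty acid handling inside the cell took much smaller shares, 0.377% for synthesis and 0.746% for oxidation. Genes of fatty acid oxidation were alike between libraries, with 2 of 40 members over 2-fold apart between the highest and the lowest library. Over all 4971 genes with a mean of at least 10 CPM, 705 were that far apart, or 14.2%, and counts of members are read against this share. ACADM, the medium-chain acyl-CoA dehydrogenase, had 769, 681 and 739 CPM. Synthesis genes were less alike, with 10 of 27 members over 2-fold. ACLY (ENSDARG00000099079), which makes cytosolic acetyl-CoA from citrate, had 748, 453 and 1261 CPM, and LPIN1, a phosphatidate phosphatase, had 13.9, 80.7 and 107 CPM. A gene that reaches the 10 CPM mean through a single library is counted as over 2-fold by its own level, which holds for the lists and for all genes.

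Cholesterol synthesis genes held 0.0250% of counts and bile acid genes 0.0857%. IDI1, an isomerase of the mevalonate pathway, had 64.4, 44.4 and 64.6 CPM. ABCB11, the bile salt export pump, had 176, 193 and 205 CPM. CYP7A1, the rate-limiting enzyme of the classical bile acid pathway in mammals, was low and uneven, with 5.69, 37.5 and 1.72 CPM and its high value in fresh replicate 2.

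Among plasma proteins, clotting genes were the steadiest class, with 5.10% ± 0.151 of counts and 0 of 21 members over 2-fold. fga, the fibrinogen alpha chain, ranked 8 with 16521, 16240 and 19011 CPM, and FGB, the beta chain, ranked 10 with 14634, 11481 and 13725 CPM. f2, prothrombin, was within 1.03-fold at 3240, 3216 and 3300 CPM. No member of the class with a mean of at least 10 CPM separated the libraries by 2-fold.

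Complement genes, whose products tag and lyse microbes, held 6.72%, 4.84% and 4.26% of counts, with 9 of 28 members over 2-fold. c3a.1, a copy of the central component C3, ranked 5 with 31546, 22822 and 19796 CPM. Other members were further apart: c3a.6 had 5589, 2130 and 2004 CPM, and cfh, the fluid-phase inhibitor factor H, had 2637, 1163 and 986 CPM. Their high values were in fresh replicate 1. cfhl2, a factor H-like gene, ran the other way with 1.94, 143 and 102 CPM. Copies of C3 and of factor H may share reads, so levels of single copies are uncertain. The sum over C3 copies was 4.24%, 2.93% and 2.53% of counts.

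Iron and haem carriers held 6.06%, 4.40% and 4.10% of counts, with 5 of 8 members over 2-fold. CP, the copper-carrying ferroxidase ceruloplasmin, ranked 11 and was steady at 10861, 10108 and 9829 CPM. hp, haptoglobin, which binds free haemoglobin, had 2657, 277 and 251 CPM. The haem binders hemopexin were reciprocal: hpxb had 2097, 535 and 462 CPM, highest in fresh replicate 1, and hpxa had 3200, 4940 and 7904 CPM, highest in fresh replicate 3. hamp, which encodes the iron hormone hepcidin, had 155, 453 and 300 CPM and was lowest in fresh replicate 1.

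Plasma protease inhibitors held 4.34% ± 0.246 of counts. fetub, a fetuin, had 9040, 10347 and 7868 CPM, and itih3b.2, an inter-alpha-trypsin inhibitor heavy chain, had 7241, 7926 and 7377 CPM. The antitrypsin copies ran in opposite directions, serpina1l with 7209, 6298 and 4405 CPM and serpina1 with 2242, 4758 and 5466 CPM, and their sum stayed within 1.17-fold. Among the remaining plasma proteins RBP4, the plasma carrier of retinol, had 7789, 8489 and 11317 CPM. crp5, a C-reactive protein-like gene, was counted in a single library, with 0, 82.9 and 0 CPM, while its relative crp3 had 1065, 1501 and 1241 CPM.

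**Figure D3:**
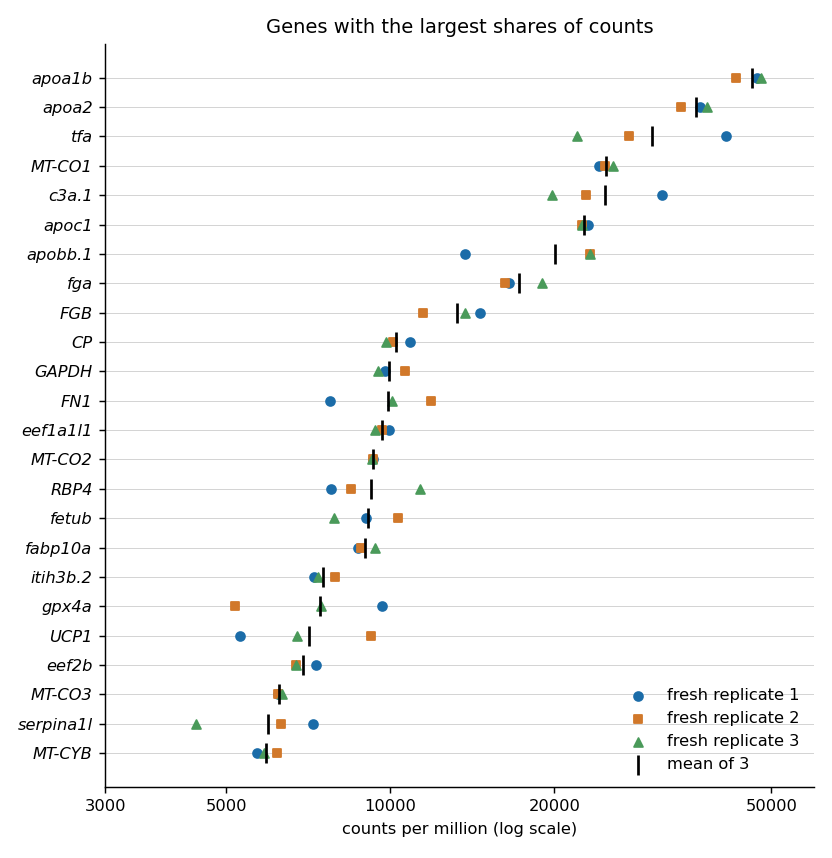
Genes reported here among the 25 of highest mean CPM (y axis) with their CPM in each fresh library (log scale, x axis); black bars are means of 3 libraries. apoa1b leads with 43141 to 47835 CPM, while tfa spans 1.88-fold and apobb.1 1.69-fold.

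The 13 mitochondrially encoded genes held 6.58% ± 0.133 of counts, and 0 of them were over 2-fold. MT-CO1, a core subunit of cytochrome oxidase, ranked 4 with 24119, 24771 and 25593 CPM. MT-CO2, another subunit of that complex, had 9302, 9296 and 9244 CPM, a range of 1.01-fold. Because these libraries were made by poly-T capture, the share of mitochondrial messages also depends on how well their tails are captured, which was not tested. mt-atp8 had the widest spread of the class and a low level, with 15.1, 18.3 and 26.4 CPM.

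Nuclear genes of oxidative phosphorylation held 0.802% ± 0.0810. Of 77 members 66 were lowest in fresh replicate 2, as were 35.6% of all genes, and 4 were over 2-fold. ATP5F1B, the catalytic beta subunit of ATP synthase, had 998, 885 and 1084 CPM. Carriers and citrate cycle enzymes held 1.36% ± 0.0442, led by SLC25A5, an ADP/ATP carrier, with 5030, 5110 and 4908 CPM. UCP1, named after the uncoupling protein of mammalian brown fat, ranked 21 with 5299, 9229 and 6752 CPM and was highest in fresh replicate 2. DLST, a subunit of the 2-oxoglutarate dehydrogenase complex, was at 1.17, 95.2 and 37.7 CPM, far lower in fresh replicate 1 than elsewhere.

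Glycolysis and glucose production held the largest share of the enzyme classes, 3.51%, 4.96% and 4.54% of counts. GAPDH, a glycolytic enzyme often used as a reference gene, was within 1.12-fold at 9769, 10631 and 9478 CPM. G6PC1 (ENSDARG00000013721), which releases glucose from glucose 6-phosphate, had 2310, 3719 and 6841 CPM. PCK1, the entry enzyme of glucose production, had 2904, 1590 and 3527 CPM. Both glucose-producing enzymes were thus highest in fresh replicate 3, while PCK1 was lowest in fresh replicate 2.

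Amino acid enzymes held 3.68% ± 0.356, with 9 of 74 members over 2-fold, a share near that of all genes. AHCY and BHMT, enzymes of the methionine cycle, had 4174, 6056 and 5054 CPM and 5371, 4121 and 5791 CPM. GLUL (ENSDARG00000099776), glutamine synthetase, stood out in the class with 15.2, 263 and 228 CPM. Redox genes held 1.44% ± 0.187. gpx4a, a glutathione peroxidase that protects membrane lipids, had 9658, 5198 and 7458 CPM, and CAT, catalase, had 4127, 4465 and 4181 CPM. gpx1b, another peroxidase, had 104, 4.66 and 9.002 CPM.

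Drug-metabolising classes took small shares, 0.583% for cytochrome P450 genes, 0.312% for conjugating enzymes and 0.575% for alcohol, aldehyde and related enzymes. cyp3a65, a drug-metabolising P450, had 744, 872 and 1115 CPM, and CYP1A1, known as a target of the aryl hydrocarbon receptor, had 550, 838 and 640 CPM. UGT1A1, a glucuronosyltransferase, was steady at 219, 253 and 208 CPM. CYP2R1, a vitamin D 25-hydroxylase in mammals, had the widest spread of the P450 genes at 3.11, 89.9 and 1.13 CPM, and CYP24A1, the 24-hydroxylase that inactivates vitamin D, had 199, 139 and 956 CPM.

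Ribosomal protein genes held 5.46% ± 0.263 of counts and were among the most uniform classes, with 6 of 80 members over 2-fold. Their median SD of log2(CPM + 0.5) was 0.08, as in the mitochondrially encoded class, against 0.23 over all 4971 genes. RPS2 had 3693, 3781 and 3507 CPM. RPS15 had the widest spread of the class, with 13.6, 168 and 11.6 CPM. Which library was highest in this class depended on the scaling. By total counts 47 of 80 members were highest in fresh replicate 2, against 36.1% of all genes. With TMM factors 45 were highest in fresh replicate 1, and the share of all genes with these factors was not computed. Fresh replicate 3 was lowest for 65 members by total counts, as for 1466 of all 4971 genes, and for 55 members with TMM factors. The translation elongation factors eef1a1l1 and eef2b stayed within 1.06-fold and 1.09-fold.

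The libraries were compared gene by gene by the SD of log2(CPM + 0.5). Its median over the 4971 genes was 0.23, with quartiles of 0.14 and 0.38, where counting alone would give a median of 0.07. Among these genes 1213, or 24.4%, were within 1.2-fold in all libraries, and 350, or 7.04%, varied by less than counting error. At the other extreme 172 genes were over 4-fold apart and 64 over 10-fold. The common biological coefficient of variation from edgeR, which leaves counting error out, was 0.310. By level, the median SD lay between 0.19 for genes of 300 to 1000 CPM and 0.25 for genes of 100 to 300 CPM.

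**Figure D4:**
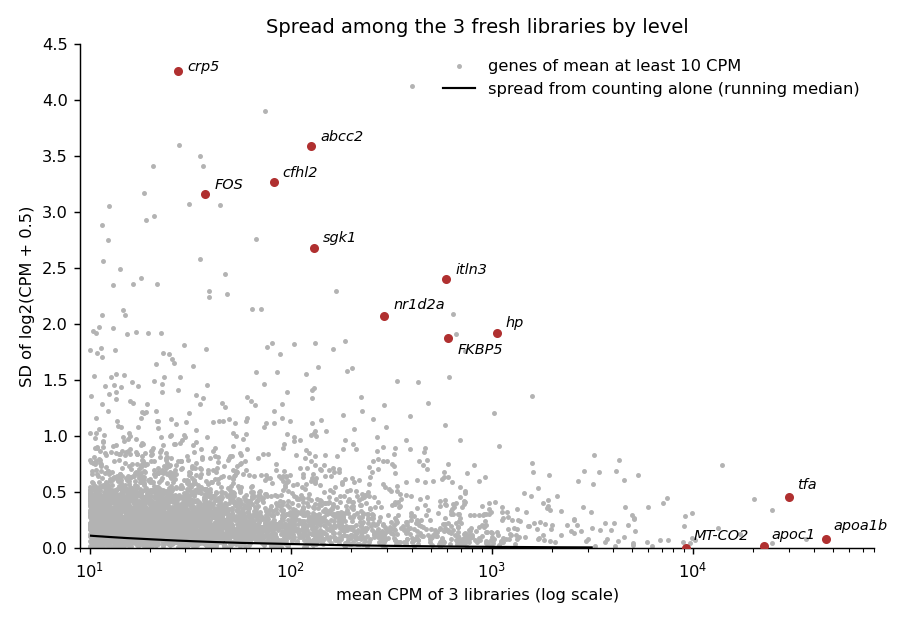
SD of log2(CPM + 0.5) over the 3 fresh libraries (y axis) against mean CPM (log scale, x axis) for the 4971 genes with a mean of at least 10 CPM (grey), with the running median of the spread that counting alone gives (line) and named genes in red. Most genes lie below 0.5, apoc1 and MT-CO2 lie near 0, and crp5, abcc2, cfhl2 and FOS lie above 3.

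No library was a copy of another: the chi-square of counts per degree of freedom was 67.5 for fresh replicates 1 and 2, 65.2 for 1 and 3, and 35.6 for 2 and 3, where sampling noise would give about 1. Fresh replicates 2 and 3 were the most alike by chi-square, by correlation and by the count of genes over 2-fold apart, while by the median difference of log2(CPM + 0.5) fresh replicates 1 and 3 were closer (0.24 against 0.25). Across the 4971 genes Pearson's correlation of log2(CPM + 0.5) was 0.919, 0.935 and 0.947 for these pairs in the same order, and 484, 382 and 281 genes were over 2-fold apart. Genes are not independent, so these correlations are descriptions within 3 libraries. Leaving out a library can hardly raise the count of 705 genes, since the range over fewer libraries is no wider. The count was 278 without fresh replicate 1, 369 without fresh replicate 2 and 490 without fresh replicate 3. The library farthest from the middle value was fresh replicate 1 for 327 of the 705 genes (127 high, 200 low), fresh replicate 2 for 217 (108 high, 109 low) and fresh replicate 3 for 161 (89 high, 72 low).

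Among genes of at least 100 CPM, the most alike was rplp2l, a ribosomal stalk protein, with 296, 296 and 295 CPM. CTNNB1, beta-catenin, a junction and Wnt signalling protein, had 117, 120 and 119 CPM, and aldh2.2, a mitochondrial aldehyde dehydrogenase, had 118, 116 and 116 CPM. The SD of rplp2l, 0.0044, was below the 0.0202 that counting alone gives, and CTNNB1 and aldh2.2 were likewise below theirs. The order of such genes among the most alike is thus not resolved by these counts. HSP90AB1, a constitutive cytosolic chaperone, had 4135, 4109 and 4022 CPM. Plasma protein and lipoprotein genes were also found among the 15 steadiest of at least 100 CPM, with f2 and apoc1.

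The genes least alike were set apart by different libraries. abcc2, a transporter that in mammals exports conjugated bilirubin into bile, had 184, 2.04 and 193 CPM, so that the remaining libraries differed by 1.05-fold without fresh replicate 2. itln3, an intelectin, a lectin that binds microbial sugars, had 1600, 91.5 and 87.2 CPM, and the libraries differed by 1.05-fold without fresh replicate 1. PPP1R3G, which targets a phosphatase to glycogen, had 75.1, 1066 and 783 CPM. sgk1, a kinase induced by glucocorticoids and osmotic stress, differed in every pair of libraries, with 294, 90.9 and 7.23 CPM. For abcc2 and itln3, then, a single library stood apart and the other two lay close together.

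Immediate early genes, which are transcribed within minutes of a stimulus, had 19 of 23 members over 2-fold, or 82.6%, against 14.2% of all genes. Of the 23 members 15 were lowest in fresh replicate 2, against 35.6% of all genes. FOS, a subunit of the AP-1 transcription factor, had 93.0, 0.738 and 19.1 CPM. JUNB (ENSDARG00000074378), its partner, had 103, 3.24 and 34.1 CPM, and the other copy, JUNB (ENSDARG00000104773), had 597, 320 and 903 CPM. BTG2, an antiproliferative early gene, had 161, 16.2 and 136 CPM. All 7 genes of the FOS, JUN and EGR families with a mean of at least 10 CPM were lowest in fresh replicate 2. MYC (ENSDARG00000007241) and ZFP36L1 (ENSDARG00000021443) did not follow, with 107, 396 and 114 CPM and 308, 651 and 321 CPM. Handling time and the interval from death to lysis are not in the labels, and their part in these values was not tested.

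Circadian clock genes were also uneven, with 9 of 16 members over 2-fold, or 56.3%. Of the 16 members 11 were lowest in fresh replicate 1, against 34.9% of all genes, and 10 were highest in fresh replicate 2, against 36.1%. nr1d2a, a REV-ERB repressor of the clock, had 34.7, 344 and 499 CPM. nfil3-6, a clock-controlled bZIP repressor, had 80.4, 199 and 231 CPM. PER1 (ENSDARG00000012499), a core period gene, was in contrast steady at 36.4, 38.4 and 39.1 CPM, and PER3 had 54.8, 78.3 and 50.9 CPM. The hour of sampling is not in the labels, and its part was not tested.

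Genes of fasting and nutrient response had 18 of 35 members over 2-fold, or 51.4%, and 18 of the 35 were highest in fresh replicate 3, against 25.6% of all genes. In fresh replicate 1, 20 of the 35 were lowest, against 34.9% of all genes. Their summed level was 11729, 10102 and 20374 CPM, and G6PC1, PCK1 and IGFBP1 gave the larger part of it in each library. In fresh replicate 3 the median deviation of members from their mean over the libraries was 0.26 on the log2 scale, and in fresh replicate 1 it was -0.27. IGFBP1, a fasting-induced binding protein of insulin-like growth factors, had 3472, 1922 and 4885 CPM, and its copy igfbp1b had 62.5, 41.3 and 457 CPM. PDK2 (ENSDARG00000059054), a kinase that closes off pyruvate oxidation, had 41.7, 159 and 370 CPM. IRS2 (ENSDARG00000037099), an insulin receptor substrate, had 9.44, 0.114 and 46.5 CPM. CPT1B, the carnitine transferase that admits fatty acids to mitochondria, differed less, with 371, 408 and 509 CPM. Feeding before sampling is not in the labels, and its part was not tested.

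Many of the least alike genes are known as glucocorticoid targets in mammals, and a list of such genes was drawn up after these values were seen, so its counts describe and support nothing. Of 37 members with a mean of at least 10 CPM, 31 were over 2-fold, 25 were highest in fresh replicate 3 and 23 lowest in fresh replicate 1, where 25.6% and 34.9% of all genes were. FKBP5, a co-chaperone of the glucocorticoid receptor, had 91.6, 637 and 1095 CPM. tsc22d3, also called GILZ, had 23.3, 71.5 and 300 CPM, and MKNK2 (ENSDARG00000015164), a kinase of the cap-binding factor eIF4E, had 130, 643 and 1432 CPM. sgk1 was among the 4 members lowest in fresh replicate 3. The list shares G6PC1, PCK1, PDK2, IRS2 and the IGFBP1 copies with the fasting list, so the lists are not separate observations.

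A list of acute phase genes, whose plasma levels change with inflammation, was likewise drawn up after the values were seen. Of 39 members 22 were over 2-fold and 27 were highest in fresh replicate 1, against 38.2% of all genes. In that library 10 members were lowest, against 34.9% of all genes. Of the 22 members over 2-fold, 14 were highest and 8 lowest there. Of all 705 genes over 2-fold, 239 were highest and 332 lowest in that library. The summed share of the list was 17.1%, 13.004% and 12.5% of counts. Besides hp, hpxb, itln3 and cfh, already given, the list holds STEAP4, a metalloreductase, with 1010, 200 and 229 CPM, and serping1, the C1 inhibitor, with 3023, 1440 and 1329 CPM. These named members were all highest in fresh replicate 1, and the 8 over 2-fold and lowest there are not listed with them. Among plasma protein genes given above, hpxa, hamp, serpina1 and cfhl2 were over 2-fold and lowest in that library. Of the 3 fibrinogen chains, acute phase proteins in mammals, FGB was highest in fresh replicate 1, and 0 of 3 were over 2-fold. CEBPB and CEBPD, transcription factors of the acute phase response, had 371, 129 and 270 CPM and 731, 460 and 467 CPM. Antigen presentation genes with a mean of at least 10 CPM were highest in fresh replicate 1 in 8 of 8 cases, against 38.2% of all genes, and 2 of these 8 were over 2-fold. Among them b2m, the light chain of class I molecules, had 786, 494 and 495 CPM.

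Genes of the secretory pathway were highest in the same library. Among 79 members of the folding and secretion class 10 were over 2-fold, or 12.7%, near the 14.2% of all genes. Of these 79 members 55 were highest in fresh replicate 1, against 38.2% of all genes. In a narrower list of endoplasmic reticulum chaperones and translocation genes, also drawn up after the values were seen, 36 of 39 were highest there and 11 were over 2-fold. HSPA5, the lumenal chaperone BiP, had 470, 152 and 188 CPM. HSP90B1, another lumenal chaperone, had 567, 213 and 202 CPM, and XBP1, a transcription factor of the unfolded protein response, had 340, 188 and 204 CPM. The cytosolic chaperone HSP90AB1, by contrast, was within 1.03-fold.

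**Figure D5:**
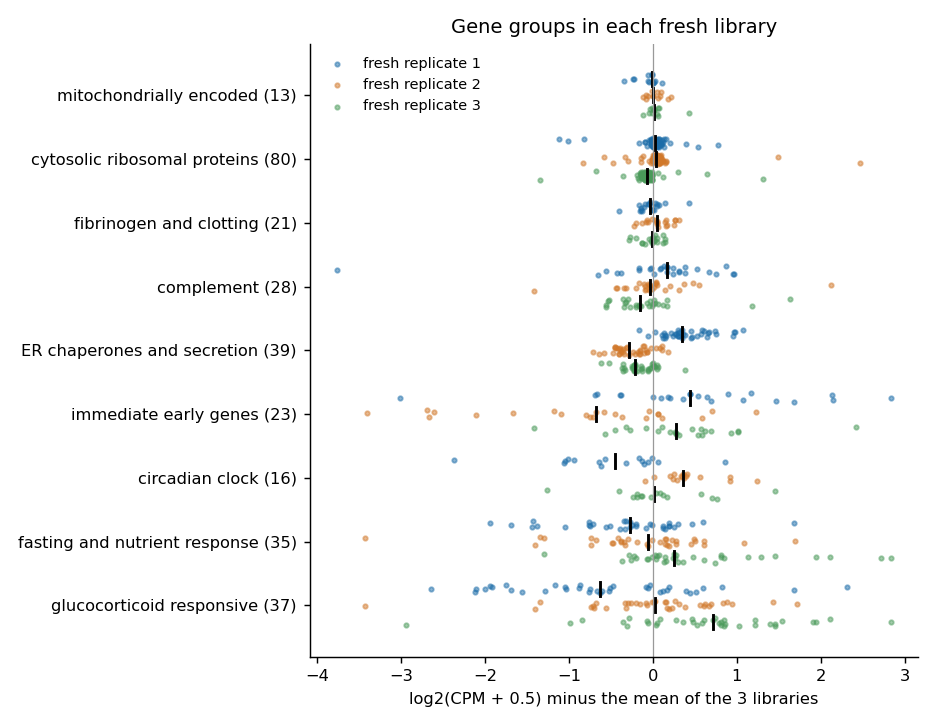
Deviation of each gene from its mean over the 3 fresh libraries (x axis, log2(CPM + 0.5)), by gene list (y axis, number of members with a mean of at least 10 CPM in brackets); points are genes, black bars are medians of a list in a library. Mitochondrially encoded, ribosomal and clotting genes lie close to 0, and immediate early genes are shifted down in fresh replicate 2 (median -0.68). Endoplasmic reticulum genes lie higher in fresh replicate 1 (median 0.35) and glucocorticoid responsive genes in fresh replicate 3 (median 0.72). These last lists were drawn up after the values were seen, so their shifts describe and support nothing.

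Transcription factors of the hepatocyte held 0.257% ± 0.00826 of counts, with 9 of 26 members over 2-fold. FOXA1, a pioneer factor, had 19.1, 53.7 and 4.74 CPM. Of the 26 members 14 were highest in fresh replicate 2, where 36.1% of all genes were, and 14 were lowest in fresh replicate 1, where 34.9% of all genes were. Interferon response genes had 9 of 16 members over 2-fold, among them isg15, a ubiquitin-like antiviral protein, with 35.7, 12.9 and 23.7 CPM.

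Markers of other cell types were low beside those of hepatocytes, and in bulk tissue fewer cells of a type cannot be told apart from less RNA per cell. Macrophage markers summed to 1472, 219 and 288 CPM, with 28 of 31 counted, and MFAP4 (ENSDARG00000090557) alone gave 1395, 199 and 257 CPM of this. Without the MFAP4 copies the other 16 macrophage markers summed to 31.5, 14.8 and 20.8 CPM. Stellate cell markers summed to 1102, 282 and 332 CPM, and to 92.6, 81.6 and 103 CPM without STEAP4. Except for the stellate sum without STEAP4, which was highest in fresh replicate 3, these sums were highest in fresh replicate 1, the library with high complement, haptoglobin and chaperone counts, and their part in those values was not tested.

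Exocrine pancreas genes, which encode digestive enzymes, were counted in every library with a sum of 1110, 856 and 468 CPM, 29 of 32 members having a count and ctrb.1, ctrb.2 and ctrb.3 at 0. amy2al1, an amylase, had 365, 138 and 108 CPM and prss1, a trypsin, 146, 134 and 63.4 CPM. In zebrafish, pancreatic tissue lies next to and between liver lobes, and whether these counts came from it was not tested. Islet hormone genes summed to 0.352, 12.7 and 1.07 CPM, with fresh replicate 2 highest, and pdx1, ISL1, NEUROD1 and PCSK2 were at 0 in all libraries.

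Endothelial markers were steady at 129, 140 and 141 CPM, led by kdrl, a receptor for vascular endothelial growth factor. Red blood cell markers summed to 204, 205 and 234 CPM, biliary markers to 372, 297 and 316 CPM with epcam and CFTR at 0, and lymphocyte markers to 5.69, 3.18 and 3.67 CPM with lck, cd79b, PAX5, RAG1 and RAG2 at 0. Neutrophil markers summed to 42.0, 25.6 and 31.3 CPM, thrombocyte markers to 5.87, 10.2 and 8.47 CPM, intestinal markers to 30.8, 34.0 and 28.4 CPM and muscle markers to 29.3, 28.2 and 29.0 CPM. Vitellogenin and oestrogen target genes, which the liver of egg-laying females expresses strongly, summed to 3.52, 1.93 and 8.59 CPM with vtg2, vtg4, vtg6 and vtg8 at 0. Oocyte and germ cell genes summed to 0.880, 1.02 and 1.66 CPM.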

How the data were processed

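Liver poly-A RNA was sequenced paired-end; per the labels' protocols, RNA was extracted with Trizol, captured on poly-T beads and primed with random hexamers. The authors deposited whole-number counts per gene. Per the file headers the reads were aligned with HISAT2. Per the submitters' processing notes the build was GRCz11 (danRer11). The aligner's version, the tool for counting, the strand setting and the annotation are not given in the sources consulted. Reads of overlapping, antisense or near-identical genes may thus be shared. Titles F1 to F3 carry the fresh sperm label, although the letter alone could be read as frozen.

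CPM were computed on all gene counts, from 16885619 to 17606733 per library, and 29201 of 32520 identifiers had a symbol. A count of 0 and the counting SD cover counting error only. Spread is the SD of log2(CPM + 0.5) for genes with a mean of at least 10 CPM, and ratios of highest to lowest use CPM without a pseudocount. Dispersion came from edgeR 4.0.16 (R 4.3.3), an intercept-only fit with TMM factors, and the procedure was tested on simulated counts. Figures used matplotlib 3.10.9. No groups are compared and no p-value is given.

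Members and lists were chosen with earlier results of these data known. Classes were matched by symbol pattern, each gene in its first matching class. The acute phase, endoplasmic reticulum and glucocorticoid lists were added after values were seen, and patterns of the lymphocyte, intestine, vitellogenin, immediate early and acute phase lists were corrected after the matched symbols were seen. Genes named are the 25 of highest mean CPM, the 4 highest members and the widest-spread member of each list, the 15 most and least alike named genes at 10 and at 100 CPM, and the hepatocyte markers, of which a part is printed and some are not reported here. Genes with values printed outside this rule were chosen after those values were seen: APOB, CETP, cfh, hpxb, hamp, serpina1, serping1, UGT1A1, CYP24A1, PER1, isg15, a copy of JUNB (ENSDARG00000074378), ENSDARG00000101479 and the on and off genes.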

Additional observations from a re-analysis of the deposited data

How the results depend on the processing

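No paired analysis was possible because no groups are compared. TMM and RLE factors, no factors, other pseudocounts and thinning to the shallowest total were each applied to some values only. The shares, median SD, biological coefficient of variation and counts of genes checked in this way stayed within a set margin. The margin for shares was the SD between libraries. For the median SD and the biological coefficient of variation it was the SD of the values with a library left out. With factors or thinning, the counts of genes over 2-fold and of genes holding 50% of the counts stayed within 1.5 times. Counts of list members highest or lowest in a library were not held to this margin. From total counts to TMM factors, ribosomal protein genes highest in fresh replicate 2 fell from 47 to 27 of 80. Those highest in fresh replicate 1 rose from 29 to 45. Without mitochondrially encoded genes in the totals, the shares became 18.0% for lipid genes, 2.31% for mitochondrial genes, 9.06% for translation genes and 3.81% for cell upkeep genes. The median SD of log2(CPM + 0.5) ranged from 0.17 to 0.23 with a library left out and was 0.29 for genes of at least 1 CPM. An SD over fewer libraries tends to have a lower median by itself, so the values with a library left out are not like for like. The count of genes over 2-fold ranged from 278 to 490 with a library left out, and was 2903 at a mean of at least 1 CPM and 154 at 100 CPM. The common biological coefficient of variation ranged from 0.269 to 0.336 with a library left out, and was 0.345 at 1 CPM and 0.371 for all counted genes. The cause of the higher values at lower minimum levels was not tested. With TMM factors 692 genes were over 2-fold, 678 of them among the 705, and 659 of these had the same library apart. Levels per coding kilobase and promoter motifs were not run, since no lengths or promoter sequences were used here. Counting error was largest for the low genes: for genes of 10 to 30 CPM the median counting SD was 0.09 on the log2 scale. The median SD between libraries for these genes was 0.24.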

Other observations

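On and off genes form a small set, of which crp5 and IRS2 (ENSDARG00000037099) were already given above. With at least 10 CPM in 1 fresh library and under 0.5 CPM in another, 24 genes qualified: 8 were low only in fresh replicate 1, 6 only in fresh replicate 2, 4 only in fresh replicate 3, and 6 were low in 2 libraries. ALDH8A1, an aldehyde dehydrogenase, had 64.4, 45.0 and 0.415 CPM, and vegfba, a vascular growth factor, had 63.6, 42.9 and 0.296 CPM. tfr1b, a transferrin receptor, had 0.117, 36.1 and 1.30 CPM. mhc2dab, a class II chain, had 0, 11.6 and 0 CPM.

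Some of these genes neighbour each other in the gene order of the GRCz12tu assembly, another build than that of the counts, where 19 of the 24 could be placed by symbol. Within 20 genes of each other and with the same library low or high lay ALDH8A1 and SH3BGRL2 (11 genes between, both low in fresh replicate 3), CAMK2N2 and tfr1b (7 genes between, both high in fresh replicate 2) and zgc:153631 and zgc:153759 (4 genes between, both low in fresh replicate 1). SH3BGRL2 had 13.1, 21.5 and 0.0592 CPM. The symbol CAMK2N2 may belong to another copy. How many such pairs unrelated genes would give was not tested.

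An unnamed gene, ENSDARG00000101479, was the widest-spread gene of at least 100 CPM, with 1192, 9.14 and 6.93 CPM.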
